A study of Homo sapiens with 18 samples.

Results

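The splicing of 48 genes for DNA replication proteins was followed in 18 RNA-seq libraries of a neuroblastoma cell line. The genes were the 6 origin recognition (ORC) genes, MCM2 to MCM10, CDC6, CDC7, CDC45, CDT1, GINS1 to GINS4, POLA1, POLA2, PRIM1, PRIM2, POLD1 to POLD3, POLE, POLE2, POLE3, RFC1 to RFC5, PCNA, RPA1 to RPA3, DNA2, FEN1, WDHD1, CLSPN, TIMELESS and TIPIN. An intron was counted to a gene when at least 1 of its splice sites lay at an annotated exon boundary of that gene. This gave 937 of the 233650 introns in the table, and 525 of them had a mean level between 1 and 99% and were compared between groups, out of 152722 such introns in all. An intron of 47 of the 48 genes was in the table, and 42 genes had at least 1 intron that was compared. POLE3 had none in the table, and the introns of MCM5, MCM6, CDT1, GINS2 and RPA3 all had mean levels outside the limits.

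The cells were SHEP.tet21n, a neuroblastoma line with a human MYCN cDNA under a promoter that doxycycline (Dox) shuts off, while cells given vehicle keep expressing it. MYCN is a transcription factor that is amplified in aggressive neuroblastoma, and SNRPD3 is a core protein of the Sm ring that coats the spliceosomal small nuclear RNAs. The study asked how MYCN and SNRPD3 together shape splicing. The MYCN-/SNRPD3+ group (wildtype) had Dox at 2 µg/mL and a control siRNA, and the MYCN-/SNRPD3- groups had the same Dox and SNRPD3 siRNA #1 or siRNA #2. The MYCN+/SNRPD3+ group had DMSO and the control siRNA, and the MYCN+/SNRPD3- groups had DMSO and siRNA #1 or siRNA #2. Each of the 6 groups had 3 libraries, so 9 libraries stood on each side of the MYCN comparison, with 6 control and 12 knockdown libraries for SNRPD3. Because Dox was given to all MYCN- cells and to no MYCN+ cells, an effect of Dox itself and one of MYCN cannot be told apart. The study describes its replicates as independent biological replicates, while the labels do not say which libraries came from which culture, and each p-value measures the spread between these libraries. Splicing ratios give no expression level, so neither the fall of SNRPD3, nor MYCN status, nor the cell type was checked here.

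The measurement is PSI, the percentage of the spliced reads of a cluster of overlapping introns that remove a given intron. PSI within a cluster sums to 100%, so a rise of an intron is a fall of its neighbours, and an intron kept in the RNA is not counted. It is an average over the cells of a library, so a change in all cells and a larger one in some of them cannot be told apart. The reads behind each value are not known, so depth is unknown and a single PSI has no interval. The deposited values are smoothed and never reach 0 or 100%, so a PSI printed as 100% is rounded. Exactly repeated values, which may stand for libraries without reads, touched 10 of the 525 introns (1.9%, against 17.3% of all introns).

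DNA replication starts at origins, where ORC, CDC6 and CDT1 load rings of MCM2 to MCM7, the core of the replicative helicase. Kinases including CDC7, together with MCM10, CDC45 and the GINS proteins, turn the rings into moving helicases. DNA polymerase alpha with its primase lays down short primers, polymerases delta and epsilon extend them on the PCNA clamp that RFC loads, and RPA covers the exposed single strands. DNA2 and FEN1 trim the flaps between lagging-strand fragments, while CLSPN, TIMELESS, TIPIN and WDHD1 hold the fork together. Cycling cells depend on these proteins. Most of the genes have many short coding exons, so each transcript needs many splicing steps.

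The exons on which the results below turn are shown as genome sequence (hg38, strand of the gene). The skip of POLA1 exon 13 was the only exon skip to pass the test described below, although its mean share was below the median of such skips. Skips of ORC1 exon 12, RFC2 exon 5 and CDC45 exon 4 were among the more frequent. Some exons of MCM9 were skipped more often and are not shown. POLA1 exon 13 (chrX:24725981-24726055, plus strand, coding, 75 bases), ORC1 exon 12 (chr1:52383830-52383937, minus strand, coding, 108 bases), RFC2 exon 5 (chr7:74246662-74246763, minus strand, coding, 102 bases) and CDC45 exon 4 (chr22:19482690-19482827, plus strand, coding, 138 bases) read as follows. All 4 lengths are multiples of 3.
POLA1 exon 13: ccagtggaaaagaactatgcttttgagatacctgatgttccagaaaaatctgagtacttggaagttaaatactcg
ORC1 exon 12: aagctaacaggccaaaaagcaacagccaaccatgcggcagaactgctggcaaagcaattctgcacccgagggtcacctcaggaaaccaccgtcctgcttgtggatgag
RFC2 exon 5: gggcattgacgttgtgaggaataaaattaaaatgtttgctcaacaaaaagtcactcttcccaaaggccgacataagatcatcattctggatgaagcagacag
CDC45 exon 4: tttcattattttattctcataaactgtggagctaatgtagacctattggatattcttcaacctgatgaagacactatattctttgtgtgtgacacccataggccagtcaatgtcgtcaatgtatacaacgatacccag

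Their splice sites are given as the last 20 intron bases and first 3 exon bases of the acceptor, and the last 3 exon bases and first 6 intron bases of the donor, with exon bases in capitals. The MCM8 lines compare an unannotated acceptor with the usual acceptor of exon 7, because the use of the unannotated site had the smallest p of these genes for SNRPD3 knockdown.
POLA1 exon 13 acceptor: taaaatatctacttacccagCCA
POLA1 exon 13 donor: TCGgtaagt
ORC1 exon 12 acceptor: ctgtgtttctcctaatgcagAAG
ORC1 exon 12 donor: GAGgtgagg
RFC2 exon 5 acceptor: aaaacctgtcattctttcagGGG
RFC2 exon 5 donor: CAGgtagag
CDC45 exon 4 acceptor: aatatcttcctttttttcagTTT
CDC45 exon 4 donor: CAGgtactt
MCM8 unannotated acceptor: tcttttttccttgagaacagCCT
MCM8 exon 7 acceptor: acttcctgttttgtctttagGGT
Of the introns whose ends were read from the genome, all 121 unannotated ones and 385 annotated ones began with gt and ended with ag. The other 4 annotated introns began with gc.

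The introns compared were mostly the known ones. Of the 525, 401 (76.4%) matched an annotated intron, against 67.6% of all introns. The other 124 were unannotated, of which 27 joined 2 annotated sites in a new combination and 97 used 1 annotated site. POLE had the most introns in the table (92), of which 41 were compared, followed by POLD1 with 50 and 33. A further 348 introns had a mean PSI under 1%, and 275 of those were unannotated. Levels were steady. The median SD within a group was 1.63 percentage points, against 3.11 for all introns, and the group means of an intron spanned a median of 2.52 points, against 4.61. Only 16 of the 525 introns (3.05%) spanned more than 10 points, against 25.7% of all introns. MCM9 held 7 of these, POLD1 3, PCNA and POLE 2 each, and POLD2 and RFC5 1 each. In 41 of the 525 introns a site was shared with another coding gene, as in all introns of MCM8 and POLA2, and these cannot be given to 1 gene with certainty.

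**Figure D1:**
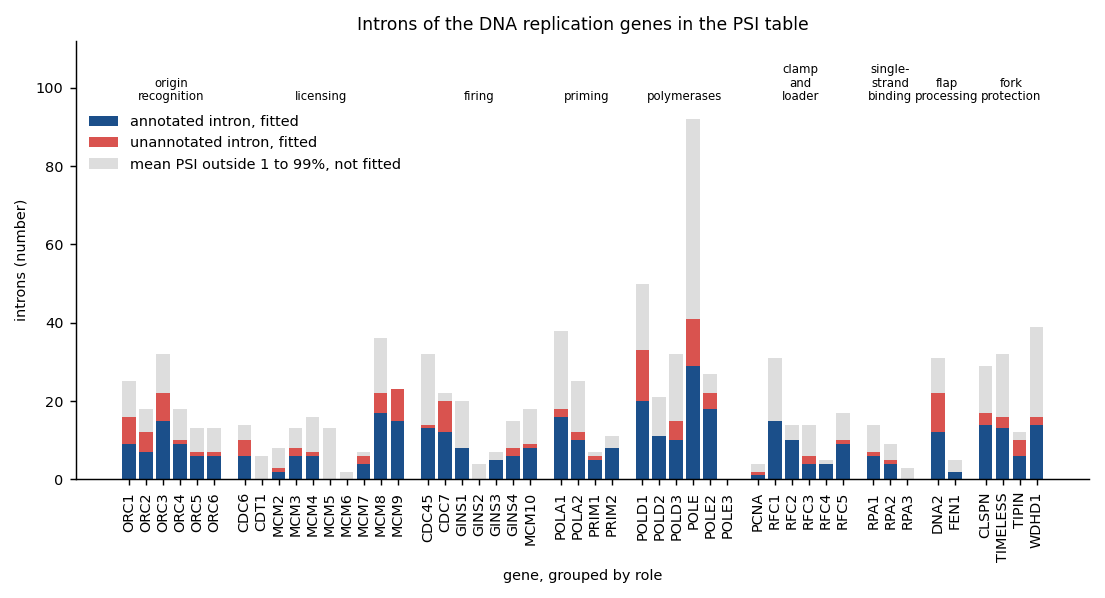
Number of introns (vertical axis) per gene (horizontal axis, grouped by role), split into annotated and unannotated introns that were compared and introns with a mean PSI outside 1 to 99%. POLE reaches 92 introns, and MCM5, MCM6, CDT1, GINS2, RPA3 and POLE3 have no compared intron.

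Expression of MYCN moved 2 of the 525 introns past the threshold, an intron of POLE and an intron of POLA1, and SNRPD3 knockdown moved none. Each comparison was fitted by limma over all 152722 introns on the log2 odds of PSI, and an intron was called at a Benjamini-Hochberg adjusted p under 0.05. For MYCN+ against MYCN- over all groups, 2 introns (0.381%) were called, 1 higher and 1 lower, where 1.23% of all introns were called. At an unadjusted p under 0.05 there were 59 (11.2%), against 11.7% of all introns. For SNRPD3- against SNRPD3+ over all groups, 0 were called, where 0.0242% of all introns were, and 37 (7.05%) had an unadjusted p under 0.05, against 7.8%. The median absolute difference was 0.108 log2 odds for MYCN and 0.098 for knockdown, against 0.232 and 0.212 for all introns. No intron had PSI values that separated the 9 MYCN+ from the 9 MYCN- libraries, or the 12 knockdown from the 6 control libraries. Of all introns, 0.353% and 0.0642% did.

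The comparisons of single groups called 0 introns of these genes, and they share libraries with each other. MYCN alone, MYCN+/SNRPD3+ against the wildtype, called 0.0543% of all introns, and 27 introns of the replication genes (5.14%, against 6.19% of all introns) had an unadjusted p under 0.05. Knockdown with MYCN repressed called 0.0105% of all introns with siRNA #1 and 0.0151% with siRNA #2, with 16 (3.05%, against 4.54%) and 29 (5.52%, against 4.69%) introns of the replication genes at an unadjusted p under 0.05. Knockdown with MYCN expressed called 0.0144% and 0.0164%, with 34 (6.48%, against 7.25%) and 22 (4.19%, against 6.17%) such introns. MYCN+/SNRPD3- against the wildtype called 0.278% with siRNA #1 and 0.11% with siRNA #2, with 48 (9.14%, against 10.4%) and 33 (6.29%, against 9.19%) such introns. The interaction, which subtracts the knockdown difference in MYCN- cells from that in MYCN+ cells, called 0.017% and 0.0138%, with 17 (3.24%, against 4.07%) and 14 (2.67%, against 3.97%) such introns. In 8 of these 9 comparisons the share was below that of all introns. The smallest adjusted p of the replication genes in these 9 comparisons was 0.0867, for MCM8 in MYCN+/SNRPD3- siRNA #1 against the wildtype.

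**Figure D2:**
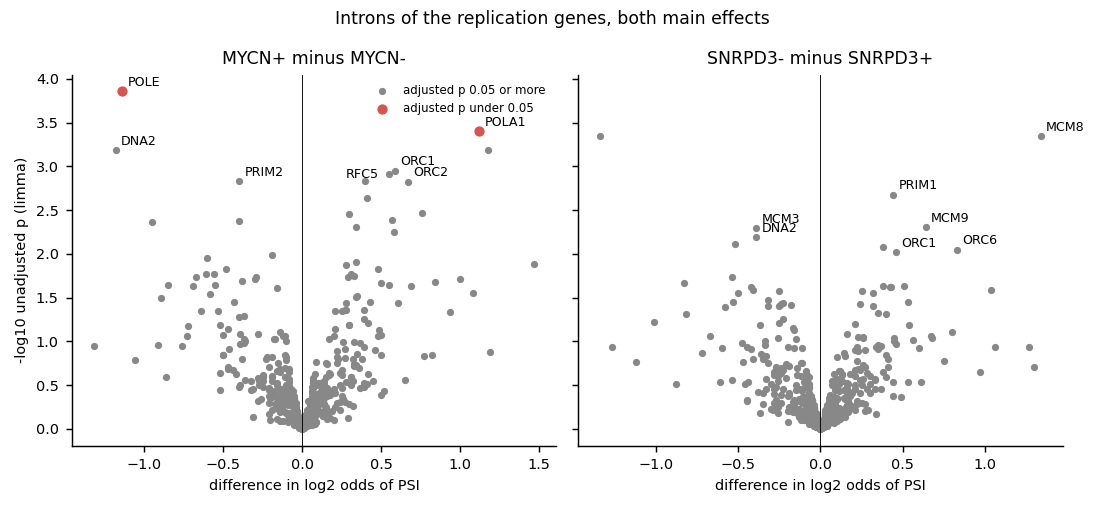
Difference in log2 odds of PSI (horizontal axis) against the negative log10 of the unadjusted limma p (vertical axis) for 525 introns, for MYCN (left) and SNRPD3 knockdown (right). Points in red are the POLE and POLA1 introns with an adjusted p under 0.05; named genes mark the smallest p of a gene, and introns of the same cluster mirror each other.

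The POLE intron that was lower with MYCN as a mean over all groups was intron 33 (chr12:132643560-132643837), the ordinary annotated step from exon 33 to exon 34. POLE is the catalytic subunit of DNA polymerase epsilon, which copies the leading strand. PSI was 99.4% in the second wildtype library and 100% after rounding in the other two, 98.5, 97.6 and 97.4% in MYCN-/SNRPD3- siRNA #1, and 100% after rounding in all 3 libraries of MYCN-/SNRPD3- siRNA #2. The MYCN+/SNRPD3+ libraries had 98.2, 97.8 and 96.4%, the MYCN+/SNRPD3- siRNA #1 libraries 98.4, 99.3 and 96.4%, and the siRNA #2 libraries 95.8, 96.1 and 98.4%. All 9 MYCN+ libraries were below 99.4%, but the 3 MYCN- libraries with siRNA #1 lay inside the MYCN+ range. They also lay inside the range of the MYCN+ libraries with siRNA #1, so no fall with MYCN was seen between the siRNA #1 groups. The difference was -1.14 log2 odds (SE 0.22, adjusted p = 0.0209, limma). It stood at an adjusted p of 0.0109 to 0.0468 when each library was left out in turn. With an offset of 0.05 in place of 0.01 on the odds scale it was 0.0693. The rest of the cluster was 3 unannotated introns within the same region, and none of them had a group mean above 1.61%. For knockdown over all groups the difference of the annotated intron was -0.28 (SE 0.23, adjusted p = 0.873). For siRNA #1 with MYCN repressed it was -1.43 (SE 0.37, adjusted p = 0.709), and the interaction with siRNA #1 was 1.79 (SE 0.53, adjusted p = 0.995).

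The POLA1 intron that rose with MYCN was an unannotated skip of exon 13 (chrX:24724451-24726933), which joins exon 12 to exon 14 and leaves the reading frame intact. POLA1 is the catalytic subunit of DNA polymerase alpha, the enzyme that extends the RNA primer. PSI was 0.0165, 0.0247 and 1.03% in the wildtype, 0.648, 0.0149 and 1.64% in MYCN-/SNRPD3- siRNA #1, and 0.0165, 0.0224 and 1.07% in siRNA #2. It was 1.28, 1.87 and 2.89% in MYCN+/SNRPD3+, 1.28, 2.69 and 1.77% in MYCN+/SNRPD3- siRNA #1, and 1.41, 2.64 and 2.69% in siRNA #2. All 9 MYCN+ libraries were above 1.2%, while 5 of the 9 MYCN- libraries were under 0.1% and the other 4 reached up to 1.64%, so the groups overlapped. As a share of the reads that skip or include exon 13, skipping was 0.708 ± 1.2% in the wildtype and 3.94 ± 1.6% in MYCN+/SNRPD3+ (SD, n = 3). The difference in PSI was 1.12 log2 odds (SE 0.24, adjusted p = 0.0391, limma), and 0.11 (SE 0.25, adjusted p = 0.985) for knockdown.

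The POLA1 call lay close to the threshold. It was lost in 13 of the 18 fits that left out 1 library, with an adjusted p between 0.0503 and 0.0832. The libraries were wildtype 1 and 2, MYCN-/SNRPD3- siRNA #1 1 and 2, MYCN-/SNRPD3- siRNA #2 1 and 2, all 3 of MYCN+/SNRPD3+, MYCN+/SNRPD3- siRNA #1 2 and 3, and MYCN+/SNRPD3- siRNA #2 2 and 3. The count of 2 called introns fell to 1 without wildtype 1 or 2, MYCN-/SNRPD3- siRNA #1 1, MYCN-/SNRPD3- siRNA #2 2, MYCN+/SNRPD3+ 2 or 3, MYCN+/SNRPD3- siRNA #1 3 or MYCN+/SNRPD3- siRNA #2 3. It rose to 6 without MYCN-/SNRPD3- siRNA #2 1.

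Just outside the threshold for MYCN stood introns of DNA2, ORC1, RFC5, PRIM2 and ORC2, described below with the other genes of their role. Beyond the 12 genes with the smallest p, the best introns of the other 30 genes had adjusted p-values of 0.214 to 0.96 for MYCN and 0.546 to 0.976 for knockdown.

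**Figure D3:**
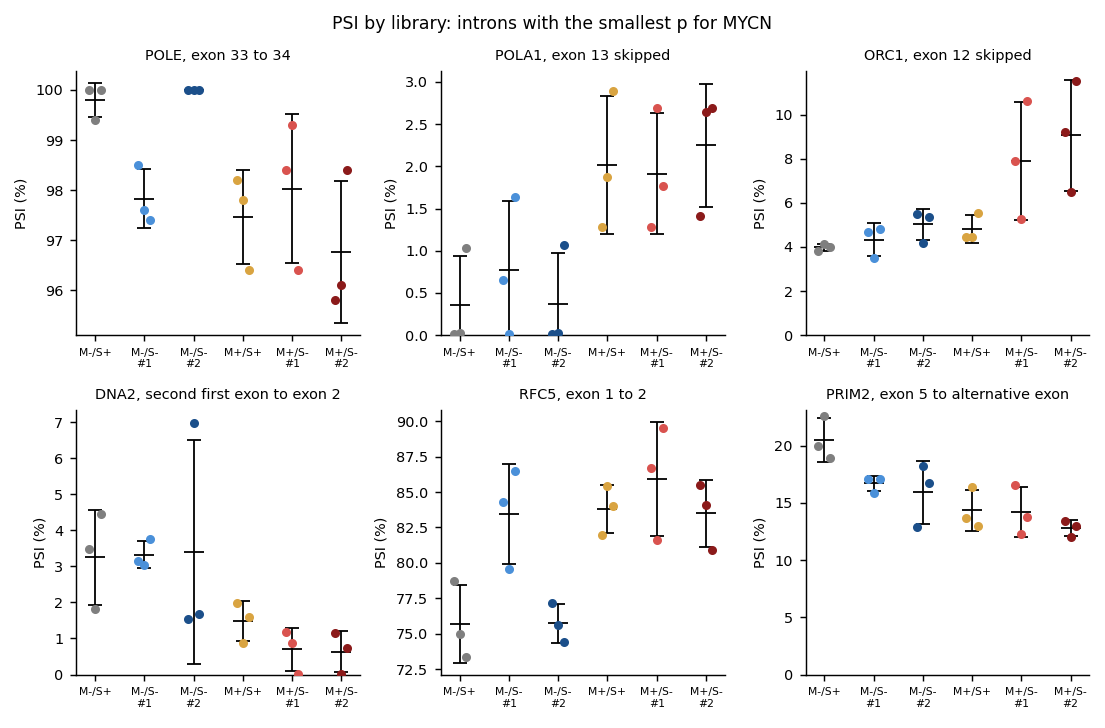
PSI in percent (vertical axis) of 6 introns in each of the 6 groups (horizontal axis, M for MYCN and S for SNRPD3), with a point per library and the mean and SD of 3 libraries; axes of high PSI do not start at 0. POLA1 exon 13 skipping lies above 1.2% in all MYCN+ libraries, and ORC1 exon 12 skipping reaches 11.5% in MYCN+/SNRPD3- siRNA #2.

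Among the ORC genes, whose 6 proteins mark origins, 74 introns were compared and 0 were called. Of these, 12 (16.2%, against 11.7% of all introns) had an unadjusted p under 0.05 for MYCN and 7 (9.46%, against 7.8%) for knockdown. For MYCN the share was 16.5% in the licensing, 14.9% in the clamp and clamp loader and 13.6% in the primase and polymerase alpha genes. The other roles were below 11.7%. For knockdown it was 12.7% in the licensing and 11.4% in the primase and polymerase alpha genes. The RPA and the flap processing genes each had 8.33%, and the rest were below 7.8%. ORC1 is the largest subunit and binds ATP. Its exon 12 skip (chr1:52383569-52384550) is unannotated and keeps the frame. PSI of the skip was 3.83, 4.14 and 4.01% in the wildtype, 4.43, 4.47 and 5.55% in MYCN+/SNRPD3+, 7.89, 5.25 and 10.6% in MYCN+/SNRPD3- siRNA #1 and 9.23, 6.48 and 11.5% in siRNA #2. With MYCN repressed, the knockdown libraries had 3.5 to 5.5%. The highest values were in MYCN+ cells with SNRPD3 knockdown, although 1 such library, at 5.25%, lay within the MYCN+/SNRPD3+ range. The difference for MYCN was 0.59 log2 odds (SE 0.14, adjusted p = 0.069), for knockdown 0.46 (SE 0.15, adjusted p = 0.424), and for MYCN+/SNRPD3- siRNA #2 against the wildtype 1.06 (SE 0.25, adjusted p = 0.134). The interactions were 0.53 and 0.55 log2 odds, each with an SE of 0.35. Without MYCN+/SNRPD3- siRNA #1 2 or siRNA #2 2, the adjusted p for MYCN became 0.0272 and 0.0392.

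ORC2 exon 10 (99 bases) was skipped at a PSI of 0.00686 to 2.17% (median 0.846%) in MYCN- libraries and 1.39 to 2.73% (median 1.99%) in MYCN+ libraries. The ranges overlapped, and the difference was 0.67 log2 odds (SE 0.17, adjusted p = 0.0812), or 0.0415 without MYCN-/SNRPD3- siRNA #2 1. ORC5 exon 10 (113 bases), whose loss shifts the frame, was skipped at 0.287 to 0.888% with MYCN repressed and 0.394 to 3.59% with MYCN expressed (0.58 log2 odds, SE 0.18, adjusted p = 0.16). A second annotated donor of the first intron of ORC6, 59 bases further in, took 1.27 ± 1.0% in the wildtype and 5.8 ± 1.4% in MYCN-/SNRPD3- siRNA #2 (SD, n = 3), a difference of 1.77 log2 odds (SE 0.44, adjusted p = 0.603). Over all groups its PSI was 0.0716 to 4.88% in control libraries and 1.78 to 7.24% in knockdown libraries (0.83 log2 odds, SE 0.27, adjusted p = 0.417). ORC3 exon 9 (114 bases) had group means of the skipping share between 4.81 and 6.87%, and differed by -0.573 points with knockdown and -0.695 points with MYCN. Exon 15 of ORC2 is reached by the annotated intron at 97.7 to 98.9% in control and 94.8 to 98.2% in knockdown libraries, the rest using an unannotated donor 66 bases upstream (-0.42 log2 odds, SE 0.16, adjusted p = 0.535).

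The licensing genes had 79 compared introns, of which 56 were annotated, and 0 calls. MCM8 forms with MCM9 a helicase for repair of broken forks rather than for licensing itself. An unannotated MCM8 acceptor in the intron after exon 6, 494 bases before that of exon 7, took 0.988, 0.0233 and 0.0192% in the wildtype and 0.0182, 1.67 and 1.61% in MYCN+/SNRPD3+. In knockdown cells it took 1.83, 2.74 and 1.99% and 0.945, 1.88 and 3.24% with MYCN repressed, and 3.57, 2.35 and 8.71% and 3.3, 3.12 and 4.42% with MYCN expressed (siRNA #1, then siRNA #2). The group means of all 4 knockdown groups were above those of both control groups, although single libraries overlapped. The difference for knockdown was 1.34 log2 odds (SE 0.29, adjusted p = 0.207), the smallest p of these genes, and for MYCN+/SNRPD3- siRNA #1 against the wildtype it was 2.12 (SE 0.47, adjusted p = 0.0867). MCM8 shares its sites with another annotated coding gene, so the intron cannot be given to MCM8 with certainty. A skip of MCM8 exon 8 (86 bases, frame-shifting) had a PSI of 0.00756 to 2.11% with MYCN repressed and 1.39 to 3.26% with MYCN expressed (0.57 log2 odds, SE 0.16, adjusted p = 0.136). An annotated MCM8 donor that leads to exon 12 had 2.16, 2.84 and 3.16% in the wildtype and 1.36, 1.05 and 1.24% in MYCN-/SNRPD3- siRNA #2 (-0.76 log2 odds, SE 0.22, adjusted p = 0.771).

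MCM9, the partner of MCM8, held 7 of the 16 introns with the widest group means. Its annotated step from exon 8 to exon 9 had a PSI of 33.4 to 46.3% (median 43.0%) in control libraries and 38.4 to 68.5% (median 53.1%) in knockdown libraries, a difference of 11.2 points. The ranges overlapped, and the test gave 0.64 log2 odds (SE 0.19, adjusted p = 0.355). Exon 9 is 175 bases long. An unannotated intron joins exon 8 to exon 10, which would place a stop 14 bases after the junction and leave 388 of the 1143 codons. Its skipping share, the skip PSI over the sum of skip PSI and mean flanking PSI, was 8.6 ± 7.7% in MYCN+/SNRPD3+, 4.16 ± 7% in MYCN+/SNRPD3- siRNA #1 and at most 0.128% as a mean of the other 4 groups (SD, n = 3). An annotated skip of exon 9 leaves from an alternative donor between exons 8 and 9, so its share counts the reads of that donor and not those that leave exon 8. That share was 39 ± 10% in the wildtype, 44 ± 4.2% and 24.8 ± 3.8% in the MYCN- knockdown groups, and 19.9 ± 15%, 20.2 ± 11% and 29.5 ± 26% in the MYCN+ groups (SD, n = 3). An unannotated acceptor after exon 8 had a PSI of 2.14 to 3.14% in the wildtype and of at most 0.1% in MYCN-/SNRPD3- siRNA #2 and MYCN+/SNRPD3+, with adjusted p-values of 0.546 and 0.288. Those became 0.0384 and 0.0317 when only the groups compared were fitted. The interaction of this acceptor with siRNA #2 was 2.31 log2 odds (SE 0.61, adjusted p = 0.952). Of the other licensing genes, MCM3 carried an alternative exon of 151 bases between exons 16 and 17. Its upstream intron had a PSI of 4.86 to 9.4% in control and 3.26 to 7.52% in knockdown libraries (-0.39 log2 odds, SE 0.12, adjusted p = 0.36). By MYCN status it was 3.26 to 6.64% and 5.3 to 9.4% (0.41 log2 odds, SE 0.11, adjusted p = 0.102, or 0.0459 without MYCN+/SNRPD3+ 1). MCM2, a subunit of the core ring, had an unannotated donor 14 bases before the usual one, at 0.0117 to 0.0273% in the wildtype and 0.534 to 2.05% in MYCN+/SNRPD3+, named for its interaction with siRNA #2 (-1.75 log2 odds, SE 0.57, adjusted p = 1).

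**Figure D4:**
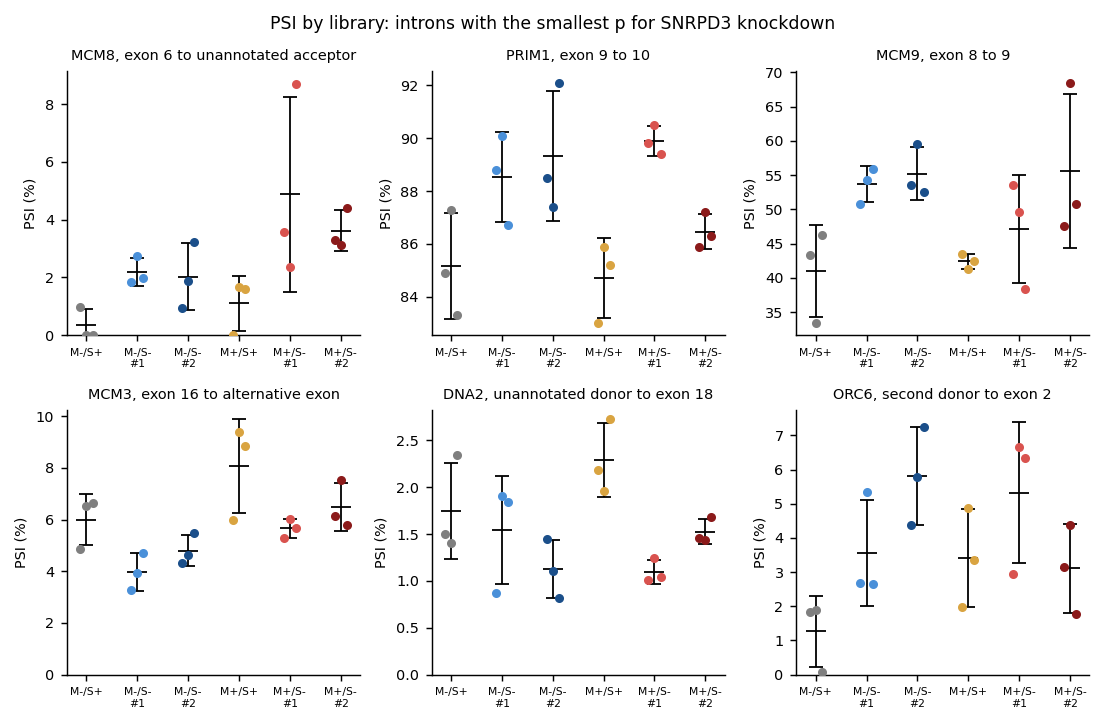
PSI in percent (vertical axis) of 6 introns in each of the 6 groups (horizontal axis, M for MYCN and S for SNRPD3), with a point per library and the mean and SD of 3 libraries; axes of high PSI do not start at 0. The unannotated MCM8 acceptor stays at or below 1.67% in control libraries and reaches 8.71% in a MYCN+/SNRPD3- siRNA #1 library.

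The firing genes, which turn loaded MCM rings into helicases, had 64 compared introns in 6 of 7 genes and 0 calls, and 2 introns (3.12%, against 11.7% of all introns) had an unadjusted p under 0.05 for MYCN. CDC45 joins the MCM ring and GINS. Its annotated exon 4 skip had a PSI of 4.59 to 5.85% (median 5.25%) in MYCN- libraries and 5.34 to 9.69% (median 7.08%) in MYCN+ libraries, with overlap (0.34 log2 odds, SE 0.10, adjusted p = 0.148). As a skipping share this was 9.8 ± 1.1% in the wildtype, and 9.82 ± 0.91% and 10.1 ± 0.96% in the MYCN- knockdown groups (SD, n = 3). With MYCN expressed it was 11.5 ± 1.5% with control siRNA, 15.1 ± 2.2% with siRNA #1 and 11.6 ± 2.5% with siRNA #2. GINS1, a GINS subunit, had an annotated intron from exon 1 to exon 5 whose PSI was 0.408, 0.19 and 0.941% in MYCN+/SNRPD3+ and 1.54, 1.09 and 4.93% in MYCN+/SNRPD3- siRNA #1 (1.12 log2 odds, SE 0.32, adjusted p = 0.42). The alternative coding exon of GINS3 (117 bases) had a skipping share of 83.7 to 89.4% and exon 2 (234 bases) of 7.13 to 9.07%, as group means. Longer GINS1 skips that leave out several exons had shares of 5.36 to 10.5% with MYCN repressed and 3.5 to 16.4% with MYCN expressed for the shorter of them. The 16.4% was that of MYCN+/SNRPD3- siRNA #1, with an SD of 12 points (n = 3). CDC7, the kinase that acts on the MCM ring, lost exon 8 (96 bases) in 3.72 to 6.07%.

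The genes of the primase and polymerase alpha had 44 compared introns, 39 of them annotated, and the POLA1 exon 13 skip was their only call. PRIM2 is the large primase subunit. Its annotated choice between the usual exon 6 and an alternative exon 1650 bases before it gave the alternative exon 20, 22.6 and 18.9% in the wildtype and 13.7, 16.4 and 13% in MYCN+/SNRPD3+. MYCN- libraries ranged from 12.9 to 22.6% (median 17.1%) and MYCN+ libraries from 12 to 16.6% (median 13.4%). This was a fitted difference of -0.40 log2 odds (SE 0.10, adjusted p = 0.0805), or an adjusted p of 0.0424 without MYCN-/SNRPD3- siRNA #2 1. For MYCN+/SNRPD3- siRNA #2 against the wildtype the difference was -0.77 (SE 0.17, adjusted p = 0.122).

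PRIM1 is the catalytic primase subunit. Its step from exon 9 to exon 10, which leaves out an alternative coding exon of 117 bases, had a PSI of 83.0 to 87.3% (median 85.1%) in control libraries and 85.9 to 92.1% (median 88.6%) in knockdown libraries. The ranges met between 85.9 and 87.3%, and the difference was 0.44 log2 odds (SE 0.11, adjusted p = 0.296). An unannotated skip of PRIM1 exon 2 (158 bases) had a PSI of 1.16, 1.02 and 1.18% in MYCN+/SNRPD3+ and 2.61, 2.39 and 3.45% in MYCN+/SNRPD3- siRNA #2. The difference was 0.87 log2 odds (SE 0.20, adjusted p = 0.384), and the interaction with siRNA #2 was 1.05 (SE 0.28, adjusted p = 0.983). POLA1 exon 24 (125 bases), a frame-shifting skip, had shares of 1.3 to 10.4% (median 4.05%) in MYCN- libraries and 0.0289 to 3.43% (median 1.71%) in MYCN+ libraries, with overlap (-0.95 log2 odds of PSI, SE 0.28, adjusted p = 0.14).

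The polymerase genes had 122 compared introns, 34 of them unannotated, and the POLE intron above was their only call. POLD1 is the catalytic subunit of polymerase delta. The introns that leave its exon 1 stand in a cluster of 15 with a large spread, where an alternative exon of 126 bases had a skipping share of 52.8 ± 20% in the wildtype and 26.3 ± 23% in MYCN+/SNRPD3- siRNA #2 (SD, n = 3). The step from exon 1 to exon 2 had group means that spanned 23.4 points, the widest of the 525, without a call (adjusted p = 0.574 for MYCN and 0.985 for knockdown). An unannotated intron from exon 1 had a PSI of 3.16 to 13.1% (median 6.92%) in control and 6.46 to 26.6% (median 15.5%) in knockdown libraries, with overlap (1.04 log2 odds, SE 0.41, adjusted p = 0.544). POLD1 exon 22 (103 bases) was skipped in 6.58 ± 0.72% in the wildtype and 12 ± 14% in MYCN-/SNRPD3- siRNA #1 (SD, n = 3), and the 3 libraries of that knockdown group spread more widely than the difference. POLD3, an accessory subunit, had an unannotated acceptor after exon 2 at 4.23, 2.76 and 4.85% in MYCN+/SNRPD3+ and 10.0, 6.87 and 7.69% in MYCN+/SNRPD3- siRNA #1 (0.97 log2 odds, SE 0.26, adjusted p = 0.375). Its interaction with siRNA #1 was 1.27 log2 odds (SE 0.36, adjusted p = 0.937). The annotated POLD3 step from exon 11 to exon 12 had 87.3, 84.6 and 86.8% in the wildtype and 80.2, 81.0 and 73.9% in MYCN+/SNRPD3- siRNA #1 (-0.75 log2 odds, SE 0.19, adjusted p = 0.134). POLE also has an annotated donor of a decay transcript that leads to exon 7, with a PSI of 1.39 to 3.78% (median 1.86%) in control and 0.0157 to 2.25% (median 1.03%) in knockdown libraries. They overlapped, 4 of the 12 knockdown libraries were under 0.1%, and the difference was -0.83 log2 odds (SE 0.32, adjusted p = 0.519). POLE2, the second subunit of polymerase epsilon, skipped exon 4 (78 bases) in 8.37 to 13.4% and exon 13 (55 bases) in 5.72 to 9.93%, as group means.

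The clamp and clamp loader genes had 47 compared introns, 43 of them annotated, with 0 calls. RFC5 is a small subunit of the clamp loader. Its direct step from exon 1 to exon 2 had a PSI of 78.7, 75.0 and 73.4% in the wildtype and 82.0, 85.4 and 84.0% in MYCN+/SNRPD3+. MYCN-/SNRPD3- siRNA #1 had 84.3, 79.6 and 86.5%, near the MYCN+ libraries, and siRNA #2 had 77.2, 75.6 and 74.4%, near the wildtype. Over all groups the MYCN difference was 0.55 log2 odds (SE 0.13, adjusted p = 0.0732), or an adjusted p of 0.0302 without MYCN+/SNRPD3- siRNA #1 2. The rest of the cluster led through alternative noncoding exons of 126 and 364 bases.

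RFC2 exon 5 was skipped in 9.1 ± 1.6% in the wildtype, 11.6 ± 2.1% and 10.5 ± 0.39% in the MYCN- knockdown groups, 10.6 ± 0.97% in MYCN+/SNRPD3+, and 16.3 ± 5.2% and 12.5 ± 3.5% in the MYCN+ knockdown groups (SD, n = 3). The skip did not pass the test for knockdown (0.32 log2 odds, SE 0.13, adjusted p = 0.555). RFC2 exon 4 (107 bases) was skipped in 3.61 to 6.09%. An annotated RFC2 acceptor of a decay transcript had a PSI of 0.733 to 1.35% with MYCN repressed and 0.875 to 1.85% with MYCN expressed (0.30 log2 odds, SE 0.09, adjusted p = 0.126). RFC3 had an unannotated intron from exon 8 to a site over 100 kilobases away, at 0.58 to 0.979% (median 0.787%) in control and 0.625 to 2.41% (median 1.21%) in knockdown libraries (0.38 log2 odds, SE 0.15, adjusted p = 0.531). PCNA, the clamp, had 2 compared introns, the complements of a single cluster, and both held repeated values.

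RPA1 and RPA2, which coat single-stranded DNA, had 12 compared introns and 0 calls. RPA2 exon 2 (107 bases) was skipped in 1.43 ± 0.29% in the wildtype and 3.41 ± 2.3% in MYCN+/SNRPD3- siRNA #2, and RPA1 exon 6 (93 bases) in 1.92 ± 0.11% and 2.58 ± 0.18% (SD, n = 3). The best adjusted p of the role was 0.408 for MYCN and 0.631 for knockdown.

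For flap processing, 24 introns of DNA2 and FEN1 were compared, with 0 calls. DNA2 is a nuclease and helicase. An annotated intron of a decay transcript, whose donor lies 1302 bases after that of the usual first intron, had a PSI of 3.47, 1.83 and 4.44% in the wildtype, 1.98, 0.886 and 1.6% in MYCN+/SNRPD3+, 1.19, 0.88 and 0.0174% in MYCN+/SNRPD3- siRNA #1 and 1.15, 0.0196 and 0.746% in siRNA #2. The MYCN- range was 1.53 to 6.99% (median 3.16%) and the MYCN+ range 0.0174 to 1.98% (median 0.886%), with a narrow overlap. The difference of -1.18 log2 odds (SE 0.27) had an adjusted p of 0.0514, or 0.0469 without MYCN-/SNRPD3- siRNA #2 1. An unannotated DNA2 donor before exon 18 had a PSI of 1.4 to 2.73% in control and 0.821 to 1.91% in knockdown libraries (-0.39 log2 odds, SE 0.12, adjusted p = 0.385).

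The fork protection genes had 59 compared introns and 0 calls. CLSPN, the adaptor that passes the checkpoint signal to CHK1, had an annotated acceptor 159 bases after the usual one, following exon 10. It took 1.59, 1.74 and 0.813% in the wildtype, 3.89, 3.97 and 7.15% in MYCN+/SNRPD3+ and 2.0, 1.56 and 0.975% in MYCN+/SNRPD3- siRNA #2. The MYCN+/SNRPD3+ libraries stood above the rest, with 1.37 log2 odds for MYCN alone (SE 0.33, adjusted p = 0.287) and -1.29 for siRNA #2 with MYCN expressed (SE 0.33, adjusted p = 0.494). WDHD1, which ties polymerase alpha to the helicase, had an unannotated acceptor after exon 10. It was at 1.7, 4.73 and 1.15% in the wildtype and 0.0133, 0.0131 and 0.0118% in MYCN-/SNRPD3- siRNA #1 (-1.70 log2 odds, SE 0.37, adjusted p = 0.498). Its interaction with siRNA #1 was 1.82 log2 odds (SE 0.52, adjusted p = 0.947). TIPIN exon 6 (64 bases) was skipped in 1.31 to 3.02% and CLSPN exon 23 (83 bases) in 2.9 to 5.0%, as group means.

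There were 35 skips of a single exon of the canonical transcripts, in 20 genes, 13 through annotated and 22 through unannotated introns. In 34 of the 35 the skip joins the neighbouring exons. The other is the annotated MCM9 exon 9 skip from an alternative donor, whose share of 29.5% was the highest, followed by 28.1% for MCM9 exon 2. The median share was 3.35%. In 34 of the 35 the exon is coding, and in 17 of these its length is a multiple of 3. In the other 17 it is not, as in MCM8 exon 8, PRIM1 exon 2 and RPA2 exon 2. MCM9 exon 2 is not coding. Between control and knockdown, 29 of 35 skips (82.9%) had a higher mean share in knockdown libraries and 6 a lower one, with a median of 0.78 points. The 24596 skipping events of the whole series are a broader set. They also hold skips of other exons and of stretches of several exons, and these genes had 50 events by that wider count. Of the 24596, 73.0% were higher with knockdown, with a median of 1.46 points. Between MYCN- and MYCN+, 26 of the 35 skips (74.3%) were higher with MYCN and 9 lower, with a median of 0.699 points. In the broader set 66.1% were higher, with a median of 1.12 points. These are directions of means, and of the 35 skips the POLA1 exon 13 skip for MYCN was the only call in the 11 comparisons. By role, 2 of 4 ORC skips, 5 of 7 licensing, 5 of 6 firing and 5 of 6 polymerase skips had a higher mean with knockdown. So did all 3 fork protection skips, all 3 of the primase and polymerase alpha genes, and both skips each of the clamp and clamp loader, RPA and flap processing genes.

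**Figure D5:**
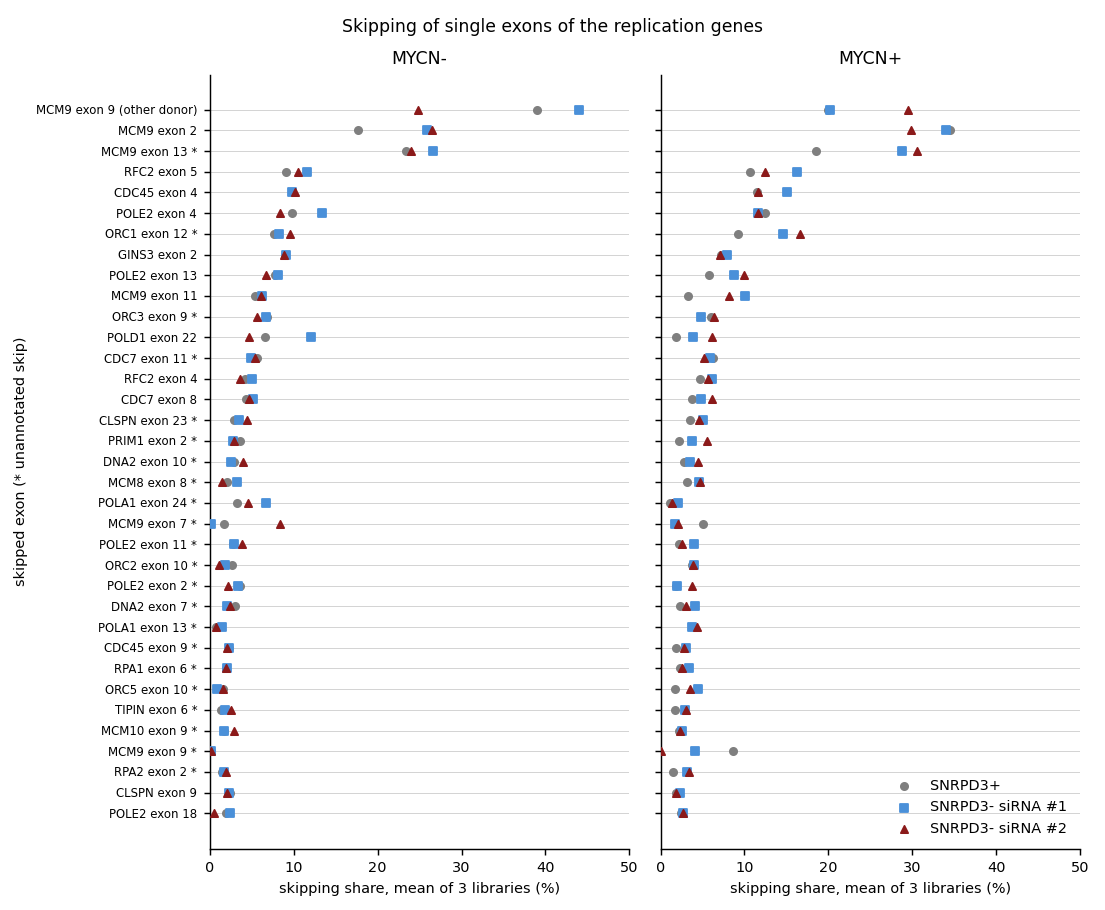
Mean skipping share of 3 libraries in percent (horizontal axis) for 35 skips of a single exon (vertical axis, an asterisk marks an unannotated skip and "other donor" the MCM9 skip that does not leave exon 8), with MYCN- on the left and MYCN+ on the right and a symbol for control siRNA, siRNA #1 and siRNA #2. ORC1 exon 12 stands at 9.19% with control siRNA and at 14.6 and 16.6% with siRNA #1 and siRNA #2 in MYCN+ cells.

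Over the 27 exon skipping events whose 3 introns are all annotated, in 14 genes, the mean skipping share was 33.7 ± 2.1% in control libraries (n = 6) and 34.7 ± 3.1% in knockdown libraries (n = 12; SD), a difference of 0.997 points that is less than the spread between libraries. The same share over all 16632 such events was 41.0 ± 0.56% and 43.3 ± 1.4%, a difference of 2.27 points. Of the 27 events, which share introns with each other, 23 were higher with knockdown (85.2%, against 73.7% of all) and 15 higher with MYCN (55.6%, against 63.4%). The levels of these annotated events, as group means of the skipping share, differed widely between groups in MCM9 and POLD1. The libraries of a group also spread widely there. MCM9 exon 2, a noncoding exon of 134 bases, was skipped in 17.6 ± 15% in the wildtype and 34.5 ± 12% in MYCN+/SNRPD3+ (SD, n = 3), within the spread of the libraries. MCM9 exon 11 (204 bases) ranged from 3.26 ± 2.9% in MYCN+/SNRPD3+ to 10.1 ± 9.7% in MYCN+/SNRPD3- siRNA #1 (SD, n = 3). In POLD1, alternative stretches of several exons after exon 1 were left out in 69.6 to 91.4% and 35.5 to 73.9%. The SD within a group reached 19 and 34 points (n = 3). The alternative noncoding exons of RFC5 were skipped in 87.5 to 93.3% (364 bases) and 94.4 to 97.5% (126 bases), and the alternative exon of PRIM1 in 91.7 to 94.7%. That of MCM3 was skipped in 92.9 to 96.2%. A longer form of RFC2 exon 4 (209 bases) was skipped in 5.79 to 9.44%. In GINS3, exon 2 together with the alternative exon before it was left out in 8.65 to 11.6%. The longer of the GINS1 skips of several exons ranged from 6.61 ± 4.2% in MYCN+/SNRPD3+ to 24.8 ± 15% in MYCN+/SNRPD3- siRNA #1 (SD, n = 3). The alternative POLD1 exon of 126 bases had the widest group means of the single exons. They ran from 26.3 ± 23% in MYCN+/SNRPD3- siRNA #2 to 62.7 ± 22% in MYCN-/SNRPD3- siRNA #2 (SD, n = 3).

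The share of unannotated introns in the splicing of these genes was 1.74 ± 0.082% in control and 1.95 ± 0.18% in knockdown libraries, a difference of 0.212 points, against 12.6 and 12.7% over all introns.

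A list of 31 other replication factors, such as kinase activators and nucleotide synthesis enzymes, was counted in the same way. In 29 of them 278 introns were compared. For MYCN 33 introns (11.9%) had an unadjusted p under 0.05 and for knockdown 15 (5.4%), with 0 called in either. The smallest adjusted p for MYCN was that of DBF4, the activator of CDC7 (0.56 log2 odds, SE 0.13, adjusted p = 0.0679), followed by RRM2 (0.0712) and SSRP1 (0.0733). For knockdown it was RRM2, a subunit of ribonucleotide reductase (1.81 log2 odds, SE 0.40, adjusted p = 0.212), followed by DBF4B (0.302) and DONSON (0.32). The single call was an unannotated intron that leaves RRM2 (chr2:10141954-10198592) in MYCN+/SNRPD3- siRNA #1 against the wildtype (3.85 log2 odds, SE 0.66, adjusted p = 0.0309), where 0.278% of all introns were called. Its PSI was 1.57 ± 2.6% in the wildtype and 21.7 ± 8.8% in that group (SD, n = 3).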

How the data were processed

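Stranded mRNA sequencing was done on 18 libraries, 6 groups of 3. Per the labels and methods, the authors aligned reads to hg38 (STAR 2.5.0a and SAMtools 1.3.1 stand in the submitters' processing notes) and counted spliced reads per intron cluster with leafcutter. The authors' deposited table gives PSI as a fraction of each cluster's spliced reads, without the reads themselves. This table has only per-sample columns. Statistics that the authors computed and deposited apart from it were not used. Every per-sample column matched a label, so 0 were left out.

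Introns were placed on GENCODE 44, whereas the methods name an older release, and exons were numbered along the canonical transcript. Introns with a mean PSI of 0.01 to 0.99 were fitted on log2((PSI + 0.01)/(1 - PSI + 0.01)), all 6 groups in 1 model, with limma 3.58.1 in R 4.3.3, and p-values were Benjamini-Hochberg adjusted over 152722 introns. Log2 odds differences depend on the offset of 0.01 and understate changes near 0 and 100%. The MYCN comparison sets the mean of the 3 MYCN+ groups against that of the 3 MYCN- groups, and the knockdown comparison the 4 knockdown groups against the 2 controls.

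The members and gene lists were chosen with earlier results of these data known. Introns given with values are those called, the 3 with the smallest p in each of the 11 comparisons (1 per gene), the best intron of each of the 12 genes with the smallest p for MYCN and for knockdown, and the levels of annotated exon skipping between 5 and 95%. Not every test that brought an intron into this list is printed. On simulated data for the knockdown comparison over 152722 introns, 24.5, 53.5 and 81.5% of 200 introns shifted by 1, 2 and 4 log2 odds were called. With them 5, 8 and 10 introns that were not shifted were called. The shifted introns were drawn from all introns, whose median SD within a group was larger than in these genes (3.11 against 1.63 points). The rates therefore are not those of the replication genes. Alternatives were an offset of 0.05, PSI limits of 0.05 to 0.95 or none, a replicate block, each library left out, and fits of only the groups compared. Figures were drawn with matplotlib 3.10.9.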

Additional observations from a re-analysis of the deposited data

Results flagged for a closer look

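The skip of ORC5 exon 10 (chr7:104165282-104168473) with siRNA #1 moved in opposite directions with MYCN repressed and expressed. Only the 31 named introns were searched for such a pattern, and how many of all introns show it was not counted. This skip was itself named for its small p for MYCN in these same libraries, so the pattern is a description only. With MYCN repressed, PSI was 0.724, 0.888 and 0.734% in control libraries and 0.604, 0.432 and 0.287% with siRNA #1, each below the lowest control. With MYCN expressed it was 1.01, 0.394 and 1.14% in control libraries and 1.59, 1.67 and 3.59% with siRNA #1, each above the highest control. The knockdown differences thus differed by 1.78 percentage points. The interaction fitted by limma was 1.14 log2 odds (SE 0.43, adjusted p = 1 over all introns, unadjusted p = 0.0205), so it did not pass the correction. For siRNA #2, whose group means were 0.792 and 1.78%, the interaction was 0.52 (adjusted p = 1).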

How the results depend on the processing

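The count of 2 introns called for MYCN became 0 with an offset of 0.05 (adjusted p = 0.0693 for POLE and 0.0512 for POLA1), 0 with PSI limits of 0.05 to 0.95, which keep neither intron, and 3 with no limits. It was 1 to 6 when each library was left out. For MYCN alone and for siRNA #2 with MYCN repressed, the count of 0 became 1 when only the groups compared were fitted, an unannotated MCM9 intron each time. The other 8 counts stayed at 0 under each alternative. With a replicate block, the MYCN count became 4, as ORC1 (adjusted p = 0.0213) and MCM3 (0.044) were added. The block changed no other call. The labels do not say whether the replicate numbers pair the samples, and the main fit has no replicate term. Deviations from group means correlated at a mean r of 0.00615 over 45 pairs with the same number and -0.00307 over 90 pairs with different numbers, although 14 of 18 libraries correlated best with their own number. Over 51 results for 31 named introns, 1091 of 1117 alternatives kept the side of the threshold, 15 lost a call, 11 gained one and 0 turned direction. The knockdown difference in mean skipping share was 0.829 to 2.3 points under the alternatives, with 2.3 for the median over events, 0.885 with unannotated skips (chosen after seeing the data), and 0.436 to 1.49 without single libraries. For the unannotated share it was 0.16 to 0.241 points. Since reads per intron were not used here, depth cannot be set beside the PSI values, and values under 0.1% may be libraries without a read.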
